A study of Mus musculus with 201 samples.

Results

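The 68 BXD strains of this survey of the mouse hippocampus were divided by how strongly they expressed Alad, the gene of aminolevulinate dehydratase. Each strain was given the mean of its arrays at the Alad probe set with the wider spread between strains, in the deposited PDNN values, and groups were chosen by that measured value. A strain at or above 8.61, the midpoint between the lowest and the highest strain, was placed in the high group, and a strain below it in the low group. The rule put 35 strains on 70 arrays in the high group and 33 strains on 64 arrays in the low group, so that 134 of the 201 arrays and 68 of the 100 strains of the series were used. Because the groups were cut on Alad, both Alad probe sets were kept out of every test, and the Alad values below describe the groups.

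BXD strains are recombinant inbred lines bred from C57BL/6J and DBA/2J, and each line is fixed for a different patchwork of the chromosomes of both parents. RNA of pooled hippocampi was hybridised to Affymetrix M430 2.0 arrays, usually with a female and a male pool for each strain. PDNN is a model that turns the probe signals of a probe set into a single value on a log-like scale. No source used here gives the base of that scale, so differences are in PDNN units and no fold changes are given. The high group held 5 strains numbered BXD42 or lower, called earlier strains here, and 30 later ones. The low group held 24 earlier and 9 later strains, so the strain set moved with the Alad group, and it was a covariate in every comparison of strains unless stated. Arrays of the high group came from 34 female and 36 male pools of 2 to 4 mice with a median age of 63 days (54 to 196). Those of the low group came from 33 female pools, 30 male pools and 1 mixed pool of 2 to 4 mice with a median age of 60 days (55 to 157). Both groups were spread over all 7 processing batches. The most frequent animal source supplied 58 of the 70 high arrays and 22 of the 64 low arrays, and animal source was added as a covariate in an alternative fit. The labels do not say that arrays of a strain came from different mice, so p-values measure the spread between strain means of pooled samples. In whole tissue, a change in the number of cells of a type and a change in RNA per cell cannot be told apart. No strain sequence was read, so whether the probes bind the RNA of both parental forms equally was not tested. Levels and differences below are therefore those of the probe signal.

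Aminolevulinate dehydratase carries out the second step of haem synthesis, in which aminolevulinic acid is condensed to porphobilinogen. Every cell that makes its own haem needs the enzyme, it carries zinc, and it is the classical target of lead poisoning. Inbred mice are known to differ in Alad activity and in the number of Alad gene copies, DBA/2J being among the strains with high activity. Gene copies were not measured here. A recombinant inbred line inherits Alad together with a long flanking segment from the same parent, so genes near Alad on chromosome 4 were counted apart from the rest of the genome.

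The sequences upstream of Alad and of the genes on either side of it are shown because those genes were compared most closely. All 3 genes were found in the RefSeq promoter table. The sequences are the 250 bases before each RefSeq start site in the mouse build GRCm38.p6, and all lie on the minus strand. Alad has start sites whose windows overlap, at chr4:62520064-62520313 and chr4:62519910-62520159. Hdhd3 was read at chr4:62502201-62502450 and Pole3 at chr4:62525015-62525264. Capitals mark GC boxes, GGGCGG or its reverse complement CCGCCC.
Alad start 1: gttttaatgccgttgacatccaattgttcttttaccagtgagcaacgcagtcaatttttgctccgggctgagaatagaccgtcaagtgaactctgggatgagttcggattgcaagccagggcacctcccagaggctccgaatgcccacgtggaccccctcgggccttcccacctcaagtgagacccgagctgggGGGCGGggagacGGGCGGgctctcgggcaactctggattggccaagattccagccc
Alad start 2: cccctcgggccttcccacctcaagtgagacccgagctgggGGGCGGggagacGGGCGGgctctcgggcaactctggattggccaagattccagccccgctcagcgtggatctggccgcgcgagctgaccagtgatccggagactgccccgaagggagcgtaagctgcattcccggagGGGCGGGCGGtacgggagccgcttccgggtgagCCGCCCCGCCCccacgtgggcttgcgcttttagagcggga
Hdhd3: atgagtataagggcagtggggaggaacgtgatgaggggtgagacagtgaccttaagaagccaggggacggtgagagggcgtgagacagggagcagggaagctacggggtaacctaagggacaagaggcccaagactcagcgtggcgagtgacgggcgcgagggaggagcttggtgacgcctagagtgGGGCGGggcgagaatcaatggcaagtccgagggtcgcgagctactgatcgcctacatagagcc
Pole3: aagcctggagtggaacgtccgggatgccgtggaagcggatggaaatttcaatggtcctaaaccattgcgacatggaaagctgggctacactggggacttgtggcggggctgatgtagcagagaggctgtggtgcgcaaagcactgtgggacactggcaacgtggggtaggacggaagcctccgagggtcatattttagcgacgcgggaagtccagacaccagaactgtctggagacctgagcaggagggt
The windows held 2 GC boxes at Alad start 1, 6 at Alad start 2 (overlapping matches counted), 1 at Hdhd3 and 0 at Pole3, and 32.7% of 32851 RefSeq promoter windows of this length held at least 1. The CCAAT box (CCAAT or ATTGG) matched 2 times at Alad start 1, 1 time at Alad start 2 and at neither neighbour, against 33.8% of all windows with a match. None of the 4 windows held AGATAA or TTATCT, the core letters bound by GATA factors, which 9.99% of all windows held. The GC content was 58.4% and 70.4% at the Alad starts, 60.8% at Hdhd3 and 57.6% at Pole3. These are matches of letters in the reference, and no strain sequence was read.

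Alad levels fell into separate ranges. Low strains ran from 8.15 in BXD11 over a median of 8.27 to 8.45 in BXD55, and high strains from 8.73 in BXD13 over a median of 8.90 to 9.07 in BXD45. The strains just inside and just outside the midpoint were BXD13 and BXD55, and the gap of 0.289 units between them was the widest anywhere in the order, the next being 0.062. BXD55 was measured on 1 array, as were BXD86 and BXD94. The arrays of a strain differed by a median of 0.067 units and by at most 0.357. Of the high arrays 1 lay below the midpoint, a BXD13 array at 8.56, and 0 low arrays lay above it. The related lines BXD48 and BXD48a were both low, and BXD65, BXD65a, BXD65b, BXD73 and BXD73a were all high. Of the earlier strains 17.24% were high, against 76.92% of the later ones.

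**Figure D1:**
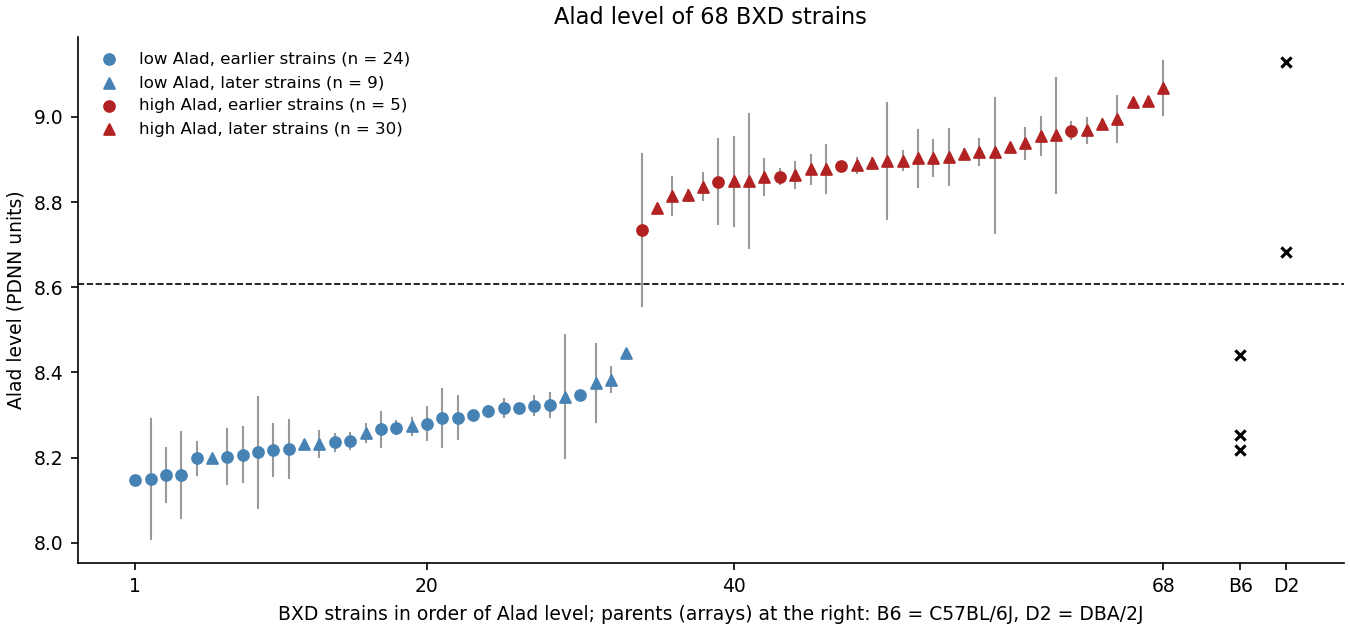
Alad level (vertical axis, PDNN units) of each BXD strain in order of level (horizontal axis); points are strain means, grey lines join the lowest and highest array of a strain, circles are earlier and triangles later strains, and the dashed line is the midpoint. Low strains end at 8.45 and high strains begin at 8.73, and crosses at the right are single arrays of the parents.

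The other deposited summaries showed the same split. In the deposited MAS5 values the low strains ran from 8.60 to 9.18 and the high strains from 9.70 to 10.2, and in RMA values from 8.58 to 9.23 and from 9.83 to 10.5. These summaries are rescaled, so their units are not those of PDNN. Of the RMA columns, 4, namely 3 of C57BL/6J and 1 of BXD14, correlated better with the PDNN values of another array than with those of their own label. The BXD14 column was the single RMA column used for that strain, and without it the RMA ranges of Alad were the same. The second Alad probe set, 1457306_at, ran from 8.02 over a median of 8.11 to 8.31 in low strains and from 8.13 over 8.28 to 8.37 in high strains, so at that probe set the groups overlapped. The parents were measured on few arrays. C57BL/6J had Alad levels of 8.22, 8.44 and 8.25, and DBA/2J had 9.13 and 8.68. The F1 hybrids had 8.69, 8.69 and 8.65 in B6D2F1 and 8.98, 8.53 and 8.51 in D2B6F1. These arrays all lay above the C57BL/6J arrays and below the higher DBA/2J array, and the D2B6F1 array at 8.98 lay well above the lower DBA/2J array.

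Over the rest of the transcriptome few genes moved with the Alad group. Of 45035 probe sets tested, 21 passed (0.0466%), 4 higher in high strains (0.00888%) and 17 lower (0.0377%), with limma on strain means and a Benjamini-Hochberg adjusted p under 0.05. The list was led by genes around Alad: 14 of the 21 belonged to 11 of the 188 genes measured within 20 Mb of it on chromosome 4. Another 2 lay farther along chromosome 4 (Slc24a2 and Ccdc171), 1 on chromosome 9 (Ccr9), and 4 had no gene symbol in the annotation. At an unadjusted p under 0.05 there were 1014 probe sets, or 2.25% of all. The median difference was -0.0009 units and the median absolute difference 0.0112, with a median SE of 0.0182. Without the strain set as a covariate 72 probe sets passed, among them all 21.

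Beside Alad itself, Hdhd3 showed the clearest separation. Hdhd3, which encodes a hydrolase of the haloacid dehalogenase type, lies next to Alad, 0.007 Mb away. Distances throughout run between the lower map coordinates of the genes, not between the start sites shown above. Low strains ran from 7.87 over a median of 7.93 to 8.05, and high strains from 8.12 over 8.27 to 8.38. The groups did not overlap, which was true of 1 of the 45035 probe sets (0.00222%). Hdhd3 was 0.324 units higher in high strains (SE 0.0164, limma, Benjamini-Hochberg adjusted p = 2.34e-25). Single arrays did overlap: high arrays went down to 7.997 and low arrays up to 8.08, with 2 of the 70 high arrays inside the range of the low ones and 15 of the 64 low arrays inside that of the high ones. The difference was 0.324 in earlier and 0.324 in later strains, and Hdhd3 passed in all 20 alternative fits.

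Pole3, the neighbour on the other side at 0.018 Mb, encodes a small histone-fold subunit of DNA polymerase epsilon. At probe set 1452743_at low strains ran from 8.49 over 8.59 to 8.66 and high strains from 8.58 over 8.68 to 8.78. The ranges overlapped: 9 of 35 high strains lay inside the low range and 20 of 33 low strains inside the high range, while 2 high and 3 low strains lay across the middle of the whole range. The level was 0.0939 units higher in high strains (SE 0.0131, limma, Benjamini-Hochberg adjusted p = 9.39e-06). The other Pole3 probe sets gave -0.0114 (SE 0.0181) and 0.0350 (SE 0.0166), and neither passed. In MAS5 values Pole3 kept its direction but did not pass (adjusted p = 0.395, limma with Benjamini-Hochberg).

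Cdc26, a small subunit of the anaphase-promoting complex, lies 6 gene positions from Alad on the Hdhd3 side. At probe set 1452992_at it ran from 7.97 over 8.05 to 8.21 in low strains and from 7.89 over 8.00 to 8.08 in high strains, and the groups overlapped widely. It was lower in high strains, at -0.0795 units (SE 0.0157, limma, Benjamini-Hochberg adjusted p = 0.0106). That call was lost in 10 of its 20 alternative fits, including MAS5 and RMA values. Its probe set 1423987_at gave 0.0325 (SE 0.0145) and did not pass. The remaining Cdc26 probe sets, 1456860_at and 1459540_at, gave -0.0259 (SE 0.014) and -0.0021 (SE 0.0175) without a pass.

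Most of the genes beside Alad gave no call. The 10 gene positions on each side held 20 genes with 42 probe sets, and 3 probe sets passed, those of Hdhd3, Pole3 and Cdc26. The other 17 genes had differences from -0.0450 to 0.0355 units over 34 probe sets. On the Hdhd3 side these were Zfp37, Slc31a2, Fkbp15, Slc31a1, Prpf4, Rnf183, Wdr31 and Bspry, and on the Pole3 side 4933430I17Rik, Rgs3, Zfp618, Ambp, Kif12, Col27a1, Orm1, Orm3 and Orm2. Slc31a1, the high-affinity copper importer, ran from 8.03 over 8.19 to 8.52 in low strains and from 8.07 over 8.29 to 8.57 in high strains. Its difference was 0.0335 (SE 0.0354), so 2 SE reached from -0.0373 to 0.104. Prpf4, a protein of the splicing machinery, gave -0.0399 at probe set 1438481_at (SE 0.0111). It did not pass (adjusted p = 0.574, limma with Benjamini-Hochberg), though it did in 3 of 19 alternatives: quantile normalization, no strain set covariate and Alad as a continuous covariate. Rgs3, which shortens G protein signalling, gave -0.0245 to 0.0073 at its 4 probe sets.

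Atp6v1g1, a subunit of the peripheral stalk of the vacuolar proton pump, lies 1.04 Mb from Alad on the Pole3 side. It ran from 9.03 over 9.48 to 9.82 in low strains and from 9.47 over 9.66 to 9.79 in high strains. The highest of all strains was the low strain BXD55. Atp6v1g1 was 0.160 units higher in high strains at probe set 1423255_at (SE 0.0328, limma, Benjamini-Hochberg adjusted p = 0.0163). At 1423256_a_at it was 0.160 (SE 0.0407) and at 1450926_at 0.0430 (SE 0.0137), and neither of these passed.

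On the Hdhd3 side the called genes between 5 and 13 Mb from Alad were mostly lower in high strains. Most probe sets there gave no call: 6 of 39 passed at 5 to 10 Mb and 4 of 45 at 10 to 15 Mb. Frrs1l, whose product assists the assembly of AMPA-type glutamate receptors in neurons, differed most. At probe set 1437640_at low strains ran from 9.00 over 9.76 to 9.89 and high strains from 8.98 over 9.12 to 9.75. The values formed separate clusters, and only 2 high strains (BXD60 and BXD69) and 4 low strains (BXD21, BXD55, BXD64 and BXD79) sat on the side of the other group. Frrs1l was lower in high strains, at -0.456 units (SE 0.0561, limma, Benjamini-Hochberg adjusted p = 2.85e-07). At its other probe set, 1436340_at, the ranges were 10.0 to 10.4 and 9.98 to 10.3, and it was lower, at -0.107 units (SE 0.0210, adjusted p = 0.0101, limma with Benjamini-Hochberg). In MAS5 values neither probe set passed.

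Rad23b and Rnf20 act with ubiquitin. Rad23b encodes a partner of the DNA damage sensor XPC that also escorts ubiquitinated proteins to the proteasome, and 3 of its 4 probe sets passed. At 1455420_at low strains ran from 8.11 over 8.39 to 8.55 and high strains from 8.08 over 8.18 to 8.43. The groups overlapped, with 3 high and 8 low strains across the middle. The level was lower in high strains, at -0.174 units (SE 0.0249, limma, Benjamini-Hochberg adjusted p = 1.57e-05). The difference was -0.235 units at 1424222_s_at (SE 0.0350, adjusted p = 4.32e-05) and -0.147 at 1450903_at (SE 0.0297, adjusted p = 0.0154), from limma with Benjamini-Hochberg adjustment. The remaining probe set, 1456822_at, gave -0.0855 (SE 0.0427) and did not pass. Rnf20, a ligase that attaches ubiquitin to histone H2B, ran from 8.53 over 8.89 to 8.99 in low strains and from 8.53 over 8.60 to 8.96 in high strains at 1449664_s_at. It was lower, at -0.208 units (SE 0.0330, limma, Benjamini-Hochberg adjusted p = 1.29e-04), and its other 3 probe sets gave -0.0840 to -0.0428 without a pass. An _s_at probe set is one whose probes match more than a single transcript.

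Pgap4, a Golgi enzyme that adds a sugar to GPI anchors, lies beside Rnf20. It ran from 8.98 over 9.40 to 9.56 in low strains and from 9.03 over 9.11 to 9.503 in high strains, and was lower, at -0.221 units (SE 0.0383, limma, Benjamini-Hochberg adjusted p = 1.10e-03). It did not pass in RMA values (adjusted p = 0.493) or MAS5 values (adjusted p = 0.401) in the same limma test with Benjamini-Hochberg adjustment. Epb41l4b, a FERM-domain protein of the cell cortex, ran from 7.69 over 8.66 to 8.90 in low strains and from 7.81 over 8.15 to 8.79 in high strains. The ranges nearly coincided, while the medians were 8.66 and 8.15. It was lower, at -0.372 units at 1456570_at (SE 0.0733, limma, Benjamini-Hochberg adjusted p = 0.0104), and its other probe sets gave -0.0176 and -0.0363 without a pass. Smc2, a core subunit of the condensin complex, and Smc2os, a transcript annotated on its opposite strand, moved in opposite directions. Smc2os was lower, at -0.259 units (SE 0.0406, limma, Benjamini-Hochberg adjusted p = 1.23e-04), with low strains from 7.13 over 7.52 to 7.72 and high strains from 7.10 over 7.16 to 7.57. These levels lie below the medians of BXD arrays, which ran from 7.80 to 7.93. Smc2 was 0.0657 units higher at 1458479_at (SE 0.0126, adjusted p = 6.42e-03), from limma with Benjamini-Hochberg adjustment, and 4 other Smc2 probe sets gave -0.0220 to 0.0303 without a pass. Which strand the probes read was not checked.

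**Figure D2:**
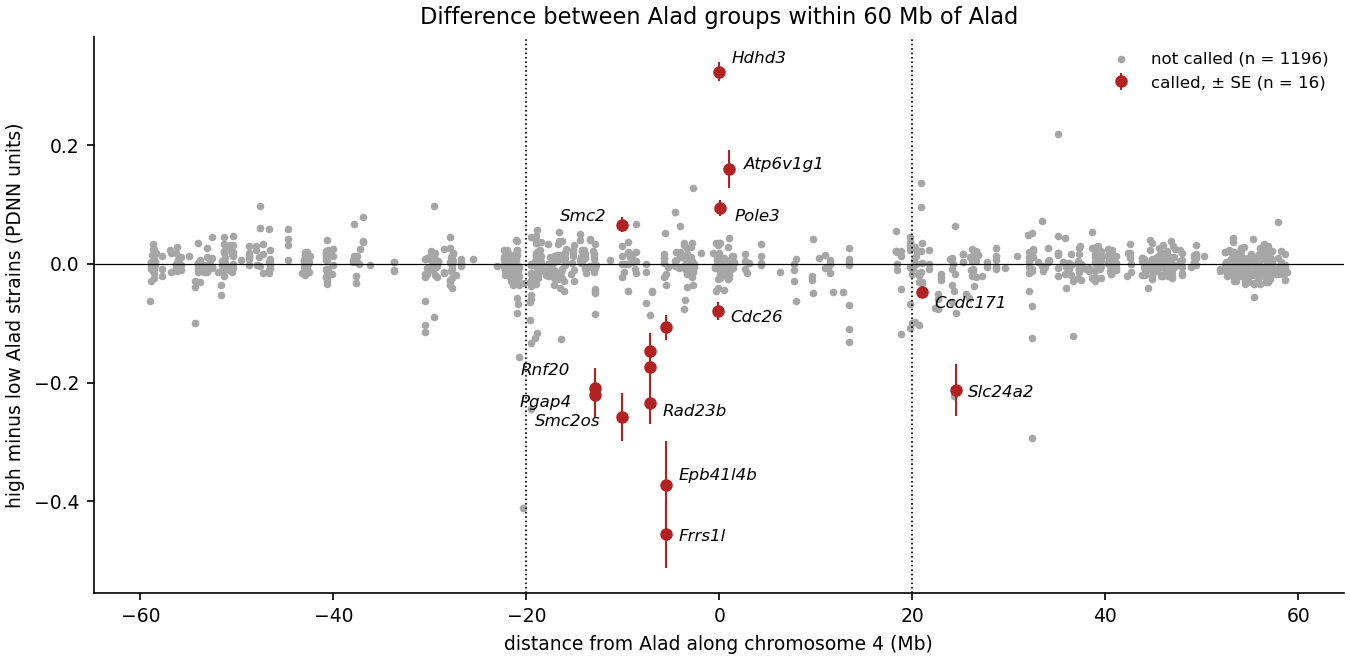
Difference between high and low Alad strains (vertical axis, PDNN units) of every probe set with 1 gene symbol within 60 Mb of Alad, by distance along chromosome 4 (horizontal axis, Mb). Red points with SE bars are the 16 probe sets that passed, grey points did not, and dotted lines bound the 20 Mb window; Hdhd3, Atp6v1g1, Pole3 and Smc2 are above 0 and the other called genes below.

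Calls around Alad were counted on each side, and the Hdhd3 side also held more tested probe sets than the Pole3 side. Within 20 Mb, 12 called probe sets of 9 genes lay on the Hdhd3 side and 2 of 2 genes on the Pole3 side. By distance, 4 of 45 probe sets passed at 10 to 15 Mb on the Hdhd3 side, 6 of 39 at 5 to 10 Mb and 2 of 66 at 0 to 5 Mb, against 2 of 48 at 0 to 5 Mb on the Pole3 side. At 15 to 20 Mb on the Hdhd3 side 0 of 115 passed. On that side the share with an unadjusted p under 0.05 was lowest there (12.2%) and highest at 5 to 10 Mb (25.6%). Between 5 and 20 Mb the Pole3 side held only 10, 16 and 19 probe sets in 5 Mb steps, and none passed. The unadjusted p was under 0.05 for 30%, 31.2% and 26.3% of these Pole3-side probe sets. That share was 12.2% at 20 to 40 Mb and 1.15% at 40 to 60 Mb on the same side. For chromosome 4 as a whole it was 6.07% of 2092 probe sets, and the other chromosomes ran from 0% on Y and 1.33% on X to 2.8% on chromosome 14.

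Beyond the window, the called genes were Slc24a2, Ccdc171 and Ccr9. Slc24a2, a potassium-dependent sodium and calcium exchanger of neurons, lies 24.5 Mb from Alad on the Pole3 side. It ran from 9.83 over 10.3 to 10.5 in low strains and from 9.85 over 10.0 to 10.5 in high strains. Of the low strains 32 of 33 lay inside the high range, and all 35 high strains inside the low range. It was lower in high strains, at -0.213 units (SE 0.0438, limma, Benjamini-Hochberg adjusted p = 0.0163), and was lost in 10 of 20 alternatives, among them sister lines averaged (adjusted p = 0.128). Ccdc171, a coiled-coil protein on the same side, was lower in high strains, at -0.0466 units (SE 0.0102, limma, Benjamini-Hochberg adjusted p = 0.0433) and was lost in 11 of 19 alternatives. Ccr9, a chemokine receptor known from thymus and gut lymphocytes, was lower, at -0.0672 units at 1421920_a_at (SE 0.0137, limma, Benjamini-Hochberg adjusted p = 0.0155). Low strains ran from 7.49 over 7.64 to 7.72 and high strains from 7.48 over 7.54 to 7.65. Both calls sat at low levels: Ccr9 averaged 7.59 and Ccdc171 7.43, while the medians of BXD arrays ran from 7.80 to 7.93. The other 4 Ccr9 probe sets gave -0.0281 to 0.0166 without a pass. In RMA values the 1421920_a_at call was lost (adjusted p = 0.69, limma with Benjamini-Hochberg).

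The 4 called probe sets without a symbol were all lower in high strains. The largest difference of the comparison was at 1440624_at, where low strains ran from 7.24 over 8.27 to 8.67 and high strains from 7.24 over 7.31 to 8.35. Both ranges started at the same level and the medians were 8.27 and 7.31. It was lower, at -0.605 units (SE 0.109, limma, Benjamini-Hochberg adjusted p = 1.99e-03). At 1441498_at, 1441932_at and 1438605_at the differences were -0.195, -0.193 and -0.0676 units. Over all strains the 4 probe sets averaged 7.78, 7.72, 7.60 and 7.42 in this order, below the lowest median of a BXD array (7.80). The annotation placed none of them, so their distance from Alad is unknown here.

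**Figure D3:**
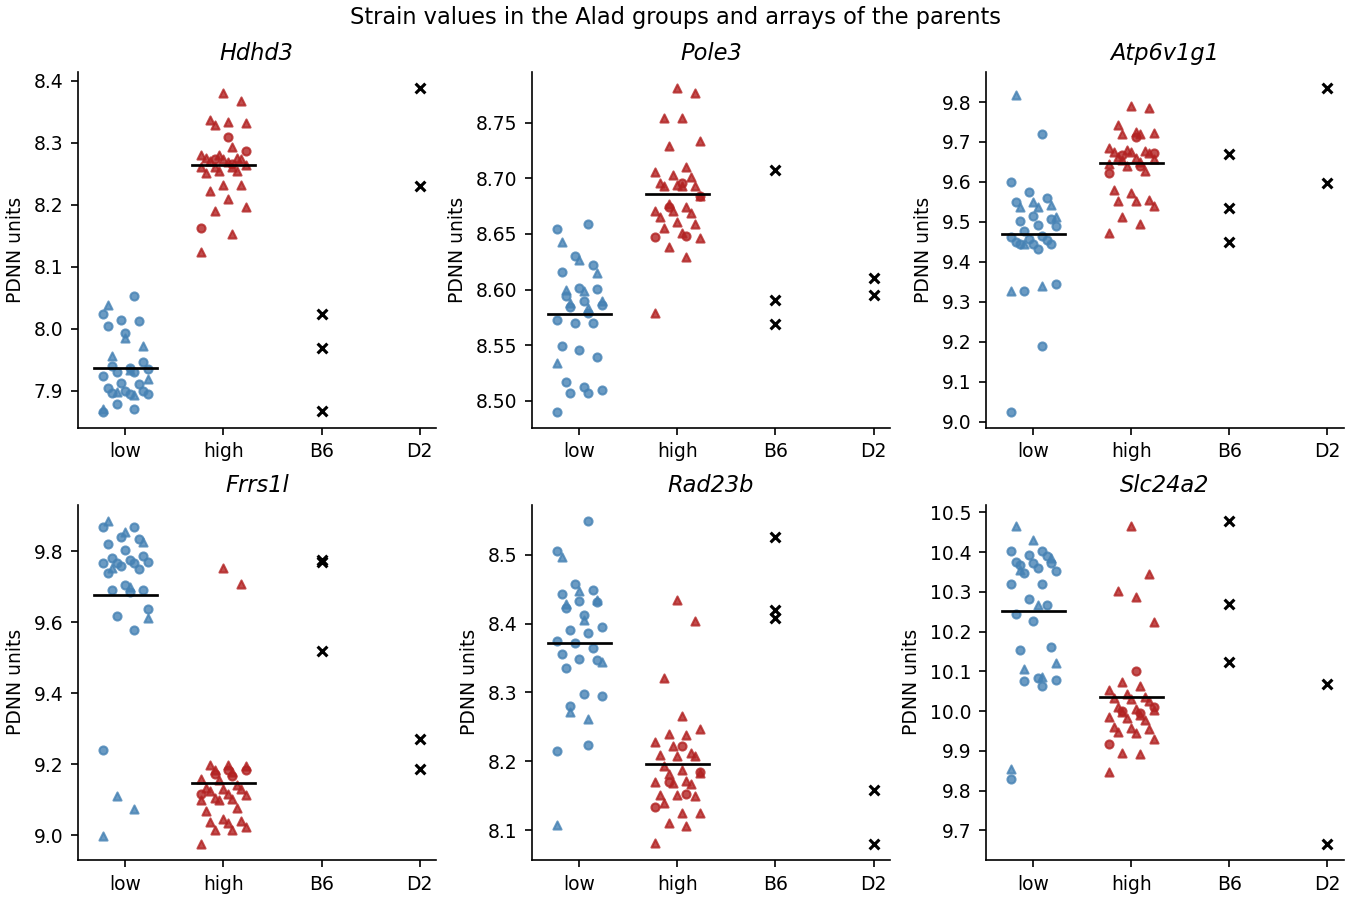
Strain means (points; circles earlier, triangles later strains) of 6 genes in low (blue) and high (red) Alad strains with group means (lines), and single arrays (crosses) of C57BL/6J (B6) and DBA/2J (D2); vertical axes are PDNN units on separate scales. Hdhd3 separates the groups without overlap at 8.05 and 8.12, while Frrs1l has 2 high and 4 low strains among the other group.

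Some strains lay on the side of the other group at several neighbouring genes, and the strains that did so differed between genes. Each called probe set was divided at the middle of its own range, and a strain was counted as opposite where it lay on the side of the other Alad group. Hdhd3 had 68 of 68 strains on the side of their Alad group, Pole3 63, Frrs1l (1437640_at) 62, Smc2os 59, Pgap4 58, Rnf20 58, Rad23b (1455420_at) 57 and Slc24a2 54. At Atp6v1g1, where a single low strain stretched the range, 41 strains were on that side. The high strains BXD60, BXD61, BXD62 and BXD69 were opposite at Smc2os, Pgap4 and Rnf20, which lie farthest out on the Hdhd3 side. Of them BXD60 and BXD69 were still opposite at Frrs1l, 5.55 Mb from Alad, and none was opposite at Pole3 or Hdhd3, while BXD61 was opposite at Cdc26. The 5 opposite strains of Pole3 included none of the 6 of Frrs1l (1437640_at), and the 15 of Cdc26 included 1 of those 6 (16.7%). Ccr9 on chromosome 9 had 13 opposite strains, among them all 6 of Frrs1l (100% and 46.2%). Those 6 strains were opposite at many calls, from 8 of the 21 called probe sets in BXD60 to 18 in BXD55. Among low strains BXD55 was opposite at 18 of the 21 called probe sets, BXD64 at 17, BXD21 at 12 and BXD79 at 11.

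**Figure D4:**
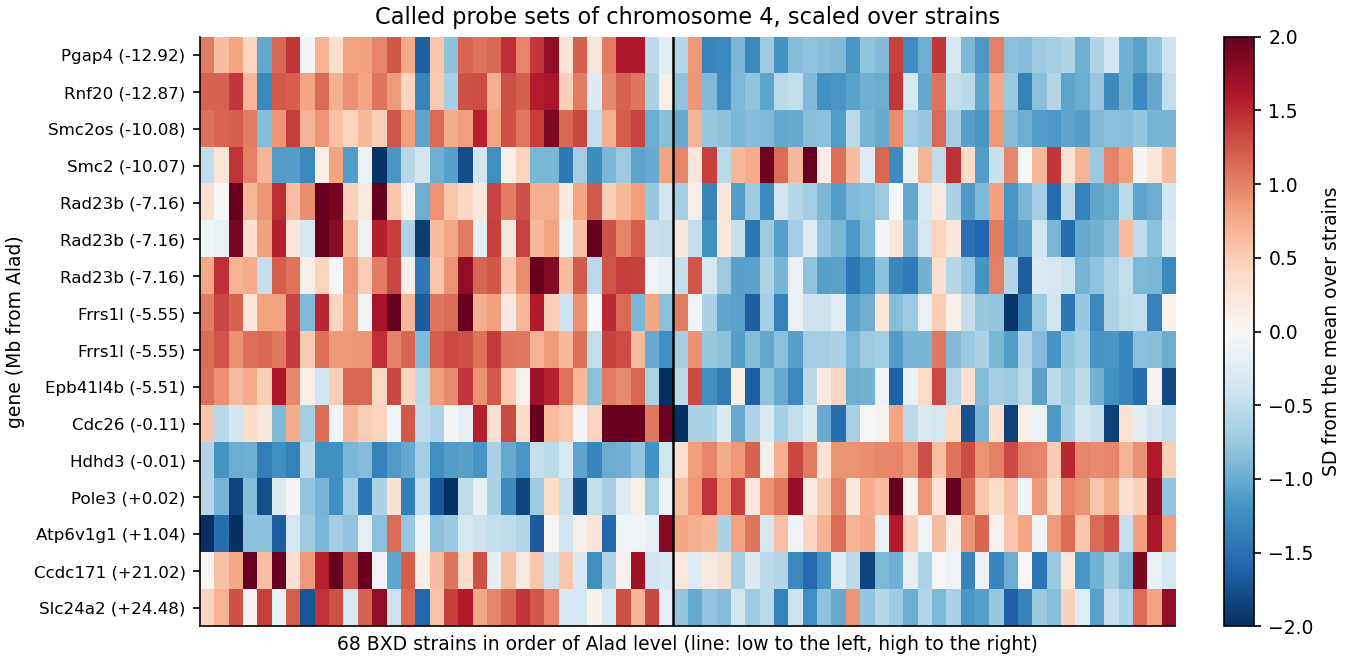
Levels of the 16 called probe sets of chromosome 4 (rows, in order of distance from Alad, given in Mb) in the 68 BXD strains (columns, in order of Alad level), in SD from the mean over strains. The black line divides low from high Alad strains, and colours change at that line in the Hdhd3 row for all 68 strains. Columns such as BXD60 and BXD69 differ from their group in several rows farther from Alad on the Hdhd3 side.

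Of the 4 unplaced probe sets, 3 shared most of their opposite strains with one another and 1 did not. At 1440624_at 11 strains were opposite, and all 11 (100%) were among the 14 at 1441932_at (78.6%). At 1441498_at there were 14, of which 10 (71.4%) were among those of 1441932_at. Slc24a2 had 14 opposite strains and shared 9 with 1441932_at (64.3% of each). At 1438605_at 15 strains were opposite, of which 2 (13.3%) were among those of 1440624_at and 3 (20%) each among those of 1441498_at, 1441932_at and Slc24a2. Pgap4 and Rnf20, which are neighbours, shared 9 of their 10 each (90%). These lists were drawn from the values themselves and carry no test.

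The earlier and later strains were compared because the Alad groups were so unevenly spread over them. All 21 calls had the same sign in both sets, and the difference was larger in earlier strains for 18. In earlier strains alone (5 high and 24 low) 8 of the calls passed, and in later strains alone (30 high and 9 low) 3 passed, among them Hdhd3 and Pole3. Whether the difference itself differed between the sets was asked with limma's interaction test. It gave 0 of 45035 with a Benjamini-Hochberg adjusted p under 0.05 (0%), and 561 at an unadjusted p under 0.05. With 5 high earlier and 9 low later strains, the test could miss such differences. Smc2os differed by -0.387 units in earlier and by -0.182 in later strains, and its interaction had an adjusted p of 1 (limma, Benjamini-Hochberg).

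The parental arrays are separate samples for the same genes. In a limma fit of strain, sex and batch over all arrays but the mixed-sex one, with 1 technical duplicate of B6D2F1 averaged, DBA/2J (2 arrays) differed from C57BL/6J (3 arrays) at 7.24% of probe sets, 4.61% higher and 2.63% lower. Of the 21 calls 10 passed between the parents, all 10 in the direction of the high against low difference, and 20 of 21 had the same sign. Without DBA/2J replicate 2 the count was 4, without DBA/2J replicate 1 it was 5, and without C57BL/6J replicate 2 it was 6. Hdhd3 was 8.02, 7.97 and 7.87 in C57BL/6J and 8.39 and 8.23 in DBA/2J. The DBA/2J values were all higher, by 0.344 units (SE 0.0737, limma, Benjamini-Hochberg adjusted p = 6.04e-04). Frrs1l (1437640_at) was 9.77, 9.78 and 9.52 in C57BL/6J and 9.19 and 9.27 in DBA/2J, a difference of -0.432 (SE 0.114, adjusted p = 7.20e-03). Slc24a2 was 10.3, 10.5 and 10.1 against 10.1 and 9.67, a difference of -0.521 (SE 0.112, adjusted p = 6.48e-04). Rad23b (1455420_at) was 8.42, 8.53 and 8.41 against 8.16 and 8.08, a difference of -0.348 (SE 0.0724, adjusted p = 3.94e-04); these are limma values with Benjamini-Hochberg adjustment. Pole3 was the exception in sign: 8.59, 8.71 and 8.57 in C57BL/6J and 8.60 and 8.61 in DBA/2J, a difference of -0.0283 (SE 0.0536) that did not pass. Atp6v1g1 gave 0.126 (SE 0.127) and Cdc26 -0.0639 (SE 0.0622) between the parents, and neither passed.

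Hdhd3 was also measured in the 32 strains outside the BXD panel. The 13 CXB strains, a second recombinant inbred panel with BALB/cByJ and C57BL/6ByJ as parents, ran from 8.09 to 8.95 for Alad and from 7.90 to 8.38 for Hdhd3. CXB12 had the lowest level of both genes among them, and CXB6 the highest of both. The 17 inbred strains ran from 8.11 in PWD/PhJ to 8.99 in C3H/HeJ for Alad and from 7.95 in C57BL/6J to 8.32 in C3H/HeJ for Hdhd3. BALB/cByJ, on 1 array, had a high Alad level of 8.83 beside an Hdhd3 level of 8.08. The F1 hybrids had Hdhd3 means of 8.13 in B6D2F1 and 8.19 in D2B6F1. The inbred strains 129S1/SvImJ, NOD/LtJ and NZO/HlLtJ lay between the BXD groups for Alad, at 8.49, 8.50 and 8.61. Their Hdhd3 levels were 8.06, 8.14 and 8.05. The CXB strains and many of the inbred strains fall into clusters, so no correlation is given.

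**Figure D5:**
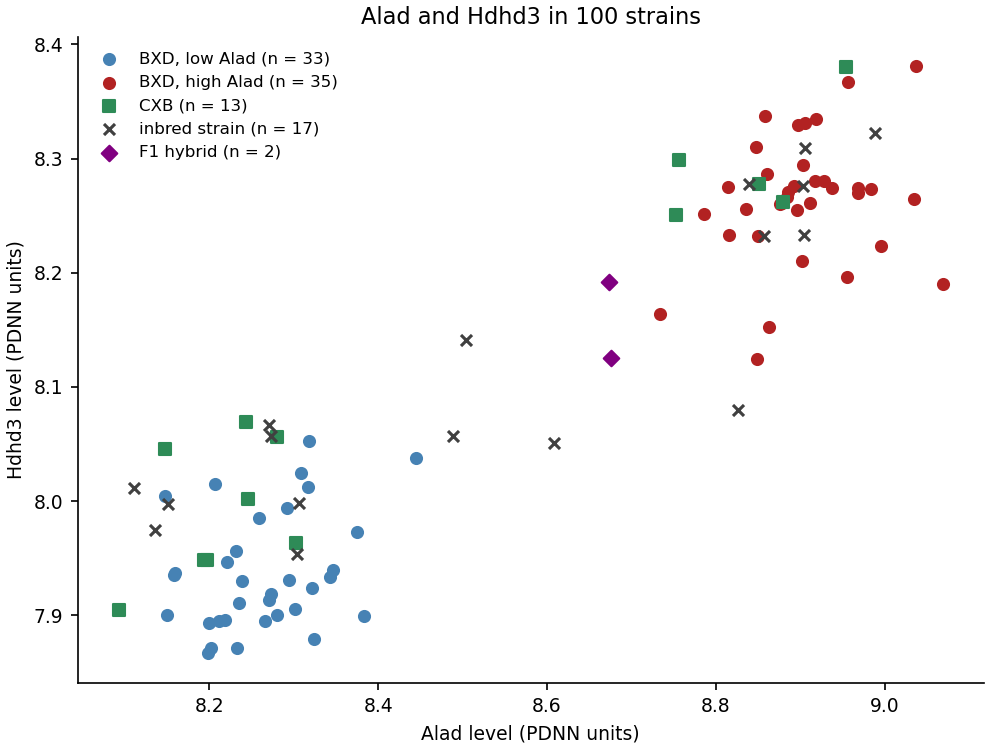
Hdhd3 level (vertical axis) against Alad level (horizontal axis), both in PDNN units, with 1 point for the mean of each of the 100 strains. BXD strains form 2 groups apart on both axes, CXB strains (squares) lie near 1 or the other, and the F1 hybrids (diamonds) lie between at Alad levels of 8.67 and 8.68.

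None of the other genes of haem synthesis measured here passed. Of 8 listed genes 7 had a probe set assigned to that symbol alone, 0 passed and 0 had an unadjusted p under 0.05 (limma), and their median difference was -0.0104 units against -0.0026 over all 18192 genes. Of all genes, with 1 probe set each, 0.0495% passed and 2.27% had an unadjusted p under 0.05, so a count of 0 in a list of this size is near the share over all genes, and the same holds for the lists below. The differences are those fitted with the strain set, and for 57 of the 174 list entries the plain group means differed in the other direction. Alas1 was one of them, with means of 8.935 in high and 8.908 in low strains. Alas1, which makes aminolevulinic acid in the first and rate-limiting step, ran from 8.73 over 8.91 to 9.03 in low strains and from 8.84 over 8.94 to 9.03 in high strains. The groups covered almost the same range, and the difference was -0.0090 (SE 0.0174), with 2 SE from -0.0439 to 0.0259. Fech, which inserts the iron in the last step, gave -0.0104 (SE 0.0192), and Urod, Uros, Cpox, Ppox and the erythroid form Alas2 gave -0.0372 to 0.0019. On simulated strain means of this design, 76% of probe sets given a difference of 0.1 units were recovered and 26% of those given 0.05 units, so smaller differences were mostly not detectable. The simulation changed 50 probe sets at each size from 0.05 to 0.4 units and gave 11 false calls. It held more changed probe sets than there were calls in the data. Its adjusted cutoff was therefore looser, and these shares may be too high.

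Counts were also 0 in the lists downstream of haem. In haem breakdown and transport (12 of 12 measured, median -0.0085), in haem proteins and sensors (15 of 15, median 0.0003) and among erythroid genes (5 of 10, median 0.0093) 0 passed and 0 had an unadjusted p under 0.05 in limma. Hmox1, the inducible haem oxygenase, gave -0.0067 (SE 0.0177). In iron handling 13 of 16 genes were measured and 0 passed, with 1 at an unadjusted p under 0.05. That gene was Tfrc, the transferrin receptor through which cells import iron, which ran from 9.33 over 9.67 to 9.87 in low strains and from 9.41 over 9.61 to 9.83 in high strains. Its difference was -0.0891 (SE 0.0353), with an adjusted p of 1 (limma, Benjamini-Hochberg). Fth1, the heavy chain of the iron store ferritin, gave 0.0066 (SE 0.0286).

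Alad protein has been described as an inhibitor of the proteasome, and proteasome genes were listed for that reason. None of the 24 measured passed and none had an unadjusted p under 0.05 in limma, and the differences ran from -0.0382 to 0.0183 around a median of -0.0128. Psmb5, a catalytic subunit, ran from 10.2 over 10.4 to 10.5 in low strains and from 10.2 over 10.3 to 10.5 in high strains, a difference of -0.0372 (SE 0.0221). Copper and metal transport genes (9 of 9 measured) had 0 calls and 0 at an unadjusted p under 0.05, with a median of -0.0046. The metallothionein Mt1, which binds zinc and copper, gave -0.0023 (SE 0.0360). Among 12 measured genes known to vary between these strains and lying outside chromosome 4, 0 passed. An unadjusted p under 0.05 in limma, reached by 2.27% of all genes, was found for 2 of them: Nnt at 0.0795 (SE 0.0347) and Rpgrip1 at 0.469 (SE 0.215). Both values depended on the strain set covariate: the plain means were 8.707 in high and 8.712 in low strains for Nnt, and 8.857 and 8.728 for Rpgrip1. Rpgrip1 differed between the parents in the other direction, at -1.21.

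No cell type marker passed between the Alad groups. Markers of 11 kinds of cell or region were followed, and 0 of each list passed (limma). An unadjusted p under 0.05 was reached by 1 of 6 meninges (Lum), 1 of 6 thalamus (Plekhg1) and 1 of 8 interneuron (Npy) markers. In the other lists it was reached by 0. Over all genes 0.0495% passed and 2.27% had such an unadjusted p, and lists this short are too small to be set against these shares. Choroid plexus markers varied most between strains, with a mean level from 7.82 over 8.37 to 9.23 in low and from 7.78 over 8.64 to 9.20 in high strains. All 9 measured had higher plain means in high strains, by 0.122 (Otx2) to 0.325 units (Ecrg4). Fitted with the strain set, their median difference was 0.0336. With the mean level of these markers as a covariate 20 probe sets passed, all 20 among the 21. Of 6 erythroid markers, where blood would be seen, 3 were measured: Alas2, Slc4a1 and Hba-a1. They had mean levels of 7.75 to 8.07 in low and 7.78 to 8.18 in high strains. No beta globin was among them, so they show blood only in part. Hbb-b2, of the other erythroid list, had plain means of 8.39 in low and 8.50 in high strains and a fitted difference of -0.0266. Pyramidal neuron markers, which define the labelled tissue together with dentate granule markers, had mean levels of 9.19 to 9.44 in low and 9.22 to 9.41 in high strains, on a scale that ran from 6.50 to 12.7. Dentate granule markers had 8.51 to 8.90 and 8.53 to 8.97, oligodendrocyte markers 9.48 to 9.92 and 9.43 to 9.93, astrocyte markers 9.94 to 10.2 and 9.97 to 10.1, and microglia markers 8.27 to 8.70 and 8.34 to 8.71.

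Array quality overlapped between the groups, with 43.5% to 55.3% of probe sets called present in low and 47.4% to 54.8% in high arrays. The ratio of actin 3' to 5' signal had medians of 1.3 in low and 1.32 in high arrays and reached 2.94 and 2.22, and the share of RMA outliers reached 0.14 and 0.09. The files head both arrays labelled BXD14 as BXD23, and these arrays correlated at 0.648 with each other and at -0.035 to 0.301 with the BXD23 arrays. The BXD23 arrays correlated at 0.273 with each other. The median was 0.311 for pairs of arrays of a BXD strain and 0.008 for pairs of different BXD strains. These values do not settle which name is right. Both strains are low, and without BXD14 22 probe sets passed, all 21 among them.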

How the data were processed

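Hippocampal RNA of 134 BXD arrays was used. The authors deposited PDNN, RMA and MAS5 values as a score for each probe set and array, and PDNN was used throughout. The series text states an average of 8 and a standard deviation of 2 for each PDNN array, while the arrays had means of 8.06 to 8.10 and standard deviations of 0.633 to 0.801. The number of strains and arrays limits the precision. Of 45101 probe sets, 64 controls and 2 of Alad were left out. Symbols came from the platform annotation and RefSeq (34943 probe sets with 1 symbol, 932 with several, 9160 with none). Positions came from GRCm38.p6 and serve as order and distance.

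Arrays were averaged by strain. The difference between Alad groups was fitted with strain set as covariate in limma 3.58.1 (R 4.3.3, data.table version 1.17.8), with moderated two-sided tests and Benjamini-Hochberg adjustment over all 45035 probe sets, and tested on simulated data. Plots and summaries were made in Python 3.11.15 with pandas 2.3.3, numpy 2.4.6 and matplotlib 3.10.9. Named genes were, from calls with 1 symbol, the 15 neighbours and 15 genes elsewhere with the largest differences, genes within 10 positions of Alad, list members, and every call where a count was 5 or fewer. Lists used the probe set with the highest mean. The members and lists were chosen with earlier results of these data known. Alternatives are given in the closing section.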

Additional observations from a re-analysis of the deposited data

Results flagged for a closer look

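In 44 groups of 4 to 10 strains, formed by Alad group and strain set at the 21 called probe sets and at Alad, 6 had 1 strain far apart from the rest. Chance gives about 1 in 20 in independent groups, but these groups reuse the same 5 and 9 strains, so that share does not apply. Among the 5 high earlier strains, BXD22 lay at 8.31 at probe set 1440624_at while the others were at 7.26 to 7.28. At 1441932_at BXD22 was again the highest, at 7.69 against 7.41 to 7.46. At Rad23b probe set 1424222_s_at BXD22 was the lowest of the 5, at 8.75 against 8.84 to 8.88. At Frrs1l probe set 1437640_at BXD1 was the lowest, at 9.12 against 9.17 to 9.19. At Cdc26 probe set 1452992_at BXD13, the high strain nearest the midpoint, was the lowest, at 7.89 against 7.99 to 8.03. Among the 9 low later strains, BXD55 was the highest for Atp6v1g1, at 9.82 against 9.33 to 9.55.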

How the results depend on the processing

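The 21 called probe sets kept their direction in each of the 20 alternative fits that tested them. Hdhd3 passed in all of them, 13 of the 21 calls passed in at least 15, and the least stable call, Ccdc171, in 8. The count of all calls was 72 without the strain set covariate, 13 with probe sets of a mean of 8 or more, 13 in RMA values without the BXD14 column that matched another array, 12 in male arrays alone, 8 in earlier strains alone and 3 in later strains alone. Neighbour calls were 31 without the covariate, 9 in MAS5 values, 8 in earlier strains, 6 in male arrays and 2 in later strains. Calls elsewhere, 3 in the main comparison, were 20 without the covariate, 6 in female arrays and 1 each in RMA values, with a mean of 8 or more, with sister lines averaged and with neighbours taken within 40 Mb. They were 0 in earlier strains, in later strains and in RMA values without the mismatched column, where limma gave 392, 667 and 845 probe sets elsewhere at an unadjusted p under 0.05. That number was 742 in the main comparison, 4477 in female arrays alone and 599 in male arrays alone. The cause of these shifts was not tested, apart from the fewer strains, arrays or probe sets that some settings hold. The parental count of 10 was 6 in MAS5 values and 4 to 10 with 1 array left out. The interaction and the gene lists gave 0 calls under each alternative run. No paired analysis was possible because replicate numbers follow accession order and strains belong to 1 Alad group each. Removing BXD14, removing the mismatched RMA column and adding animal source (23 calls, 20 among the 21) were chosen after seeing the data. PDNN scores carry no counting depth, and differences of 0.05 units were recovered in 26% of simulated cases, at a looser cutoff than in the data.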

Other observations

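Across the 13 CXB strains, which took no part in the rule, Alad and Hdhd3 took values in separate ranges. Alad was 8.09 in CXB12, 8.15 in CXB8, 8.19 in CXB9, 8.20 in CXB1, 8.24 in CXB10, 8.25 in CXB3, 8.28 in CXB5 and 8.30 in CXB7, and then 8.75 in CXB13, 8.76 in CXB11, 8.85 in CXB4, 8.88 in CXB2 and 8.95 in CXB6. Hdhd3 in the same order was 7.90, 8.05, 7.95, 7.95, 8.07, 8.00, 8.06 and 7.96, and then 8.25, 8.30, 8.28, 8.26 and 8.38. Pole3 was 8.70 to 8.77 in CXB13, CXB11, CXB4, CXB2 and CXB6. In the strains with lower Alad it was 8.55 to 8.68, except for 8.73 in CXB7. Atp6v1g1 ran from 9.39 to 9.60 over these strains without such a break. Of the parents of this panel, C57BL/6ByJ had Alad levels of 8.19 and 8.42, and BALB/cByJ had 8.83 on 1 array.

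The array D2B6F1 replicate 1 stood apart from the other F1 arrays at the genes around Alad. Its Alad level was 8.98, where the other F1 arrays had 8.51 to 8.69. Frrs1l (1437640_at) was 9.03, where the others had 9.42 to 9.61 and DBA/2J had 9.19 and 9.27. At 11 probe sets (Alad and the 10 calls that passed between the parents) it was nearer the DBA/2J mean at 9, and the other F1 arrays at 3 to 5. The F1 arrays entered no comparison of the Alad groups.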
